A study of Mus musculus with 60 samples.

Results

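The genes described here are 37 members of the Polycomb machinery and of the lysine methylation enzymes that work with or against it, out of 21924 protein-coding genes. They were chosen by name, and a peak counted for a member when the authors' annotation had given the peak that gene's symbol. Members received 377 of the 256375 peaks in 12 lists of CUT&RUN-seq, an assay in which an antibody guides a nuclease to cut out the DNA wrapped around a modified histone. The lists cover the marks H4K8ac and H3K27me3 in hippocampal nuclei of male Emx1-NuTRAP mice. Exercised mice were housed in pairs with a wheel during postnatal days 21 to 41, and sedentary mice in pairs in standard cages over the same days. Nuclei were taken on the day after this period. All mice carried Emx1-IRES-Cre and the NuTRAP reporter, controls included. Cre driven from Emx1 recombines mostly in excitatory neurons of the forebrain and also in neural progenitors. In 1 isolation both hippocampi gave nuclei and RNA from a single tube (SIT). In the separate isolations 1 hemisphere, left or right, gave the nuclei (left separate and right separate), and the 3 isolations are called arms.

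Polycomb proteins form 2 kinds of complex on chromatin. PRC2 places methyl groups on lysine 27 of histone H3 and so writes H3K27me3, a mark of silent genes. PRC1 attaches ubiquitin to histone H2A, and its canonical form reads H3K27me3 through a CBX protein. Demethylases of the KDM6 family erase the mark, the BAP1 and ASXL proteins remove the ubiquitin, and the KMT2 enzymes methylate lysine 4 of H3 at active genes. H4K8ac, an acetylation of histone H4, is found at active promoters and enhancers. In neurons PRC2 is known to keep genes of other lineages and of early development silent.

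There were 60 samples, 4 for each antibody and condition in SIT and 3 in a separate arm, in 18 groups, and no list of their own was used for the 20 IgG samples. Each list pools the libraries of a group and holds positions without heights, so each list is 1 unit with no SD. From the lists alone depth is unknown, and a group difference cannot be set against the spread between mice. Lists held 12168 to 38136 peaks for H4K8ac and 9899 to 25693 for H3K27me3, and the longer list belonged to a different condition in different arms. The authors left out several exercised H4K8ac libraries with a high false discovery rate, so these lists may rest on fewer libraries. For the SIT peaks they give fewer mice than samples in either condition, so any SIT list of either mark may rest on fewer libraries too. The part of list length in the counts below cannot be told apart from that of exercise. Of the defining genes of excitatory neurons, Emx1, Slc17a7, Camk2a and Neurod6 each had an H4K8ac promoter peak in 4 of 6 lists, and Prox1 had one in 1 list and H3K27me3 in 2. The promoters of Gad1, Gad2 and Slc32a1, which mark inhibitory neurons, had none for H4K8ac and carried H3K27me3 in 5, 6 and 1 lists. Olig2, Aqp4, Mog and Cx3cr1, markers of glia, had no H4K8ac promoter peak either and carried H3K27me3 in 6, 6, 0 and 4 lists, but Mbp of oligodendrocytes and P2ry12 of microglia had one in 6 of 6 lists, and Gfap, Aldh1l1 and Aif1 in 1 each, Aldh1l1 with H3K27me3 in 6 lists. Their part in the results was not tested.

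H4K8ac peaks were given to 23 of the 37 members in at least 1 of the 6 lists, or 62.2%, against 52.0% of protein-coding genes. H3K27me3 peaks were given to 7 members, or 18.9%, against 28.1% of protein-coding genes. All 7 members with an H3K27me3 peak also had an H4K8ac peak in some list, against 54.0% of protein-coding genes with H3K27me3, and 14 members (37.8%) received no peak of either mark, against 35.1% of protein-coding genes. Those 14 were the PRC2 core genes Eed, Suz12 and Rbbp4, the accessory genes Mtf2 and Phf1, the PRC1 genes Ring1, Rnf2, Pcgf3, Pcgf6 and Cbx2, the RING partner Yaf2, the methyltransferase Kmt2b, and Asxl1 and Bap1. Only 3 members were listed for H4K8ac in all 6 lists, namely Cbx8, Kdm7a and Rybp, which is 8.11% of members against 12.4% of protein-coding genes. For H3K27me3 those listed 6 times were Aebp2, Cbx8 and Rybp, again 8.11% against 10.7%. Members are longer genes than most, with a median of 39536 bp against 17410 bp, and the part of length in these shares was not tested.

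**Figure D1:**
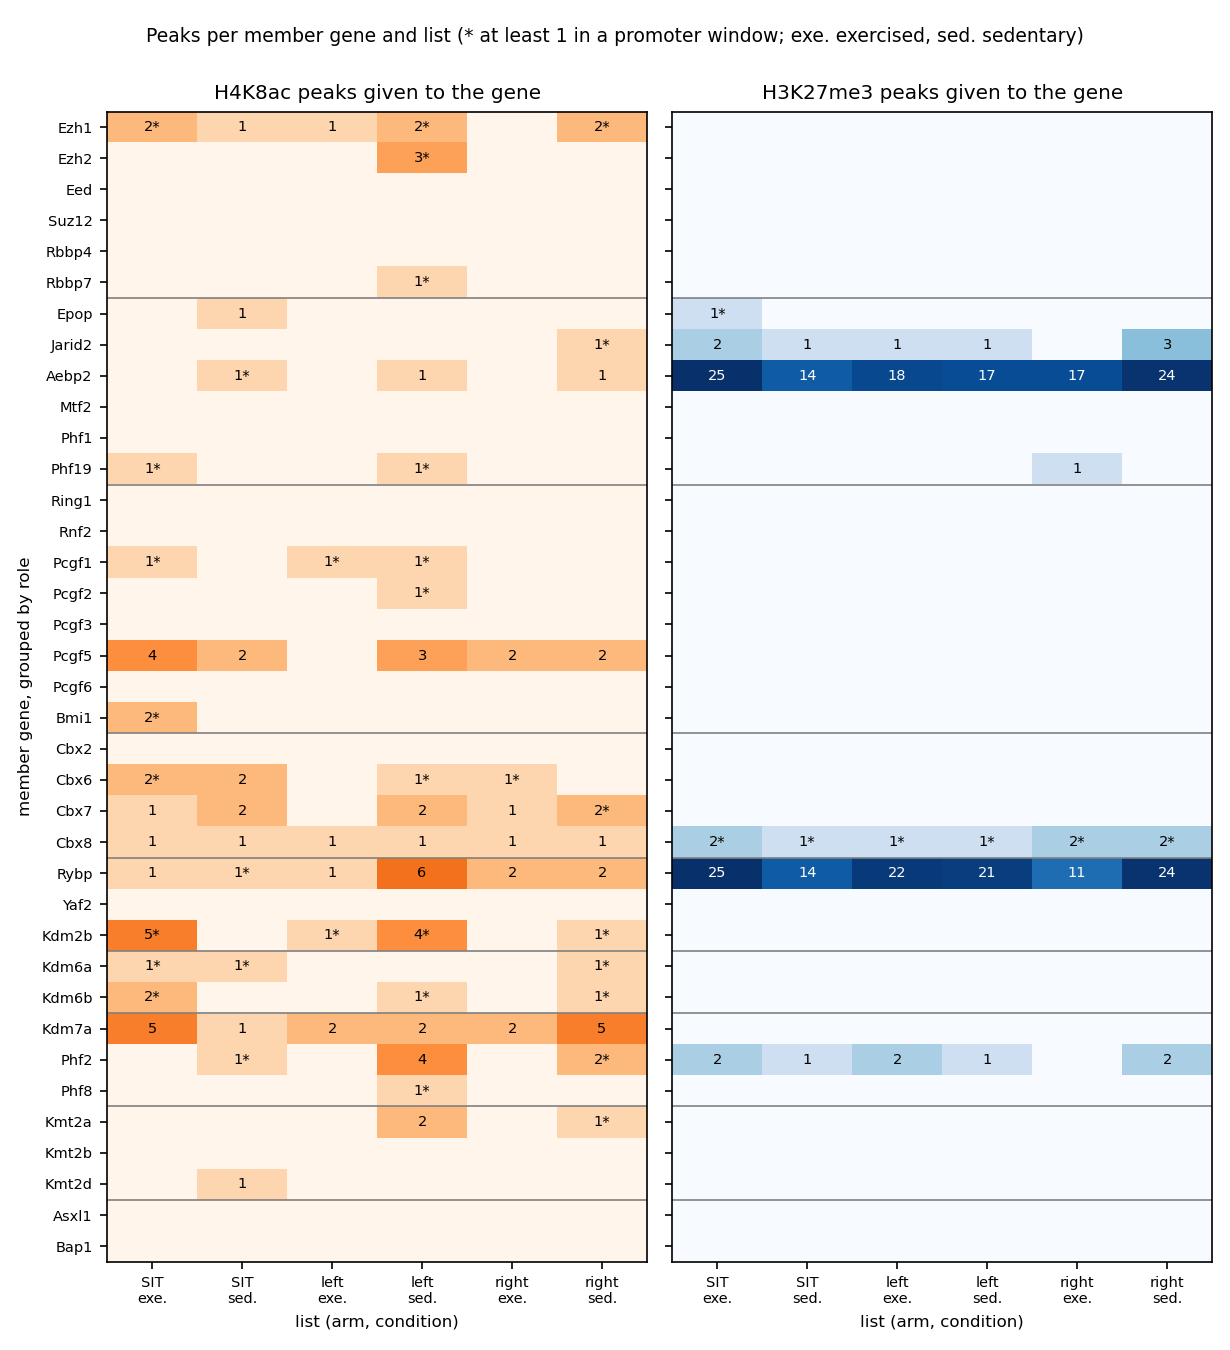
Number of peaks given to each of the 37 members (rows, grouped by role with grey lines) in each of the 6 H4K8ac lists and 6 H3K27me3 lists (columns), with an asterisk where at least 1 peak was in a promoter window. H4K8ac is spread over 23 rows with 1 to 6 peaks a cell, while H3K27me3 fills 7 rows, of which Aebp2 and Rybp hold 11 to 25 peaks per list.

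List by list, the share of members with an H4K8ac peak followed the share of all protein-coding genes. In SIT, 13 members (35.1%) were listed in exercised and 12 (32.4%) in sedentary mice, against 41.2% and 32.8% of protein-coding genes. In the left separate arm, 6 members (16.2%) were listed in exercised and 18 (48.6%) in sedentary mice, against 19.6% and 39.4%. Right separate mice had 6 (16.2%) and 13 (35.1%), against 22.1% and 31.6%. For H3K27me3 the members' share lay below that of all protein-coding genes in each of the 6 lists. It was 16.2% (6 members) in exercised and 13.5% (5 members) in sedentary SIT mice, against 24.5% and 14.5%. In the left separate arm 5 members (13.5%) were listed in either condition, against 19.7% and 17.7%. In the right separate arm it was 10.8% (4 members) and 13.5% (5 members), against 13.3% and 23.0%. No test was made of these gaps.

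**Figure D2:**
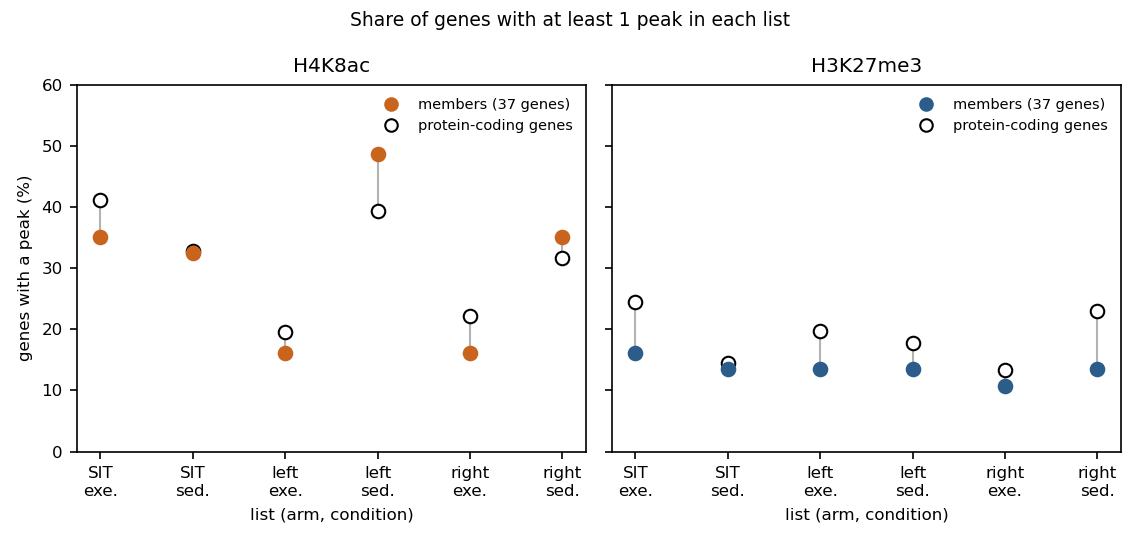
Percentage of genes with at least 1 peak in each list, for the 37 members (filled) and for 21924 protein-coding genes (open), with the arm and condition on the horizontal axis. Members lie above the protein-coding genes in 2 of the 6 H4K8ac lists, both sedentary, and below them in all 6 H3K27me3 lists.

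Cbx8 was the member with H3K27me3 at its own promoter in every list. CBX8 is a chromobox subunit of canonical PRC1 and binds H3K27me3. The gene lies on chr11:119036305-119040969 (GRCm38, minus strand), next to Cbx2, which encodes a further chromobox subunit. An H3K27me3 peak began 61 to 454 bp outside the annotated start and ran away from the gene. Its width was 12609 bp in exercised and 11140 bp in sedentary SIT mice, 10768 and 12027 bp in left separate mice, and 11401 and 12434 bp in right separate mice. The widths thus differed little, and the exercised list had the wider peak in SIT alone. This peak was wider than 86.7 to 95.4% of the peaks of its list, and merged over the lists it spans chr11:119041030-119053643, with no annotated gene under it.

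A small H3K27me3 peak at the other end of Cbx8, of 1436 to 2465 bp, was present in 3 lists (exercised SIT and both right separate). It lay past the gene in the exercised lists and reached into its 3′ UTR in sedentary right separate mice. In 2 of these it also lay within 3 kb of Cbx2, which was itself given no peak.

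Cbx8 also received an H4K8ac peak in all 6 lists, and this peak was not at the gene. It lay 11634 to 15453 bp from Cbx8, just beyond the far end of the H3K27me3 peak. Its width was 6445 bp in exercised and 3570 bp in sedentary SIT mice, 3430 and 5801 bp in left separate mice, and 2650 and 5248 bp in right separate mice. As with H3K27me3, the exercised peak was the wider in SIT alone. All 6 peaks shared a stretch of 1107 bp, chr11:119056422-119057528, with no annotated gene. The H4K8ac and H3K27me3 peaks of Cbx8 touched in 2 of the 6 pairs of lists from the same arm and condition, exercised SIT and sedentary left separate. These were 2 of 118 member H4K8ac peaks (1.69%) that overlapped an H3K27me3 peak of the same arm and condition, against 0.378% of all 155961 H4K8ac peaks.

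**Figure D3:**
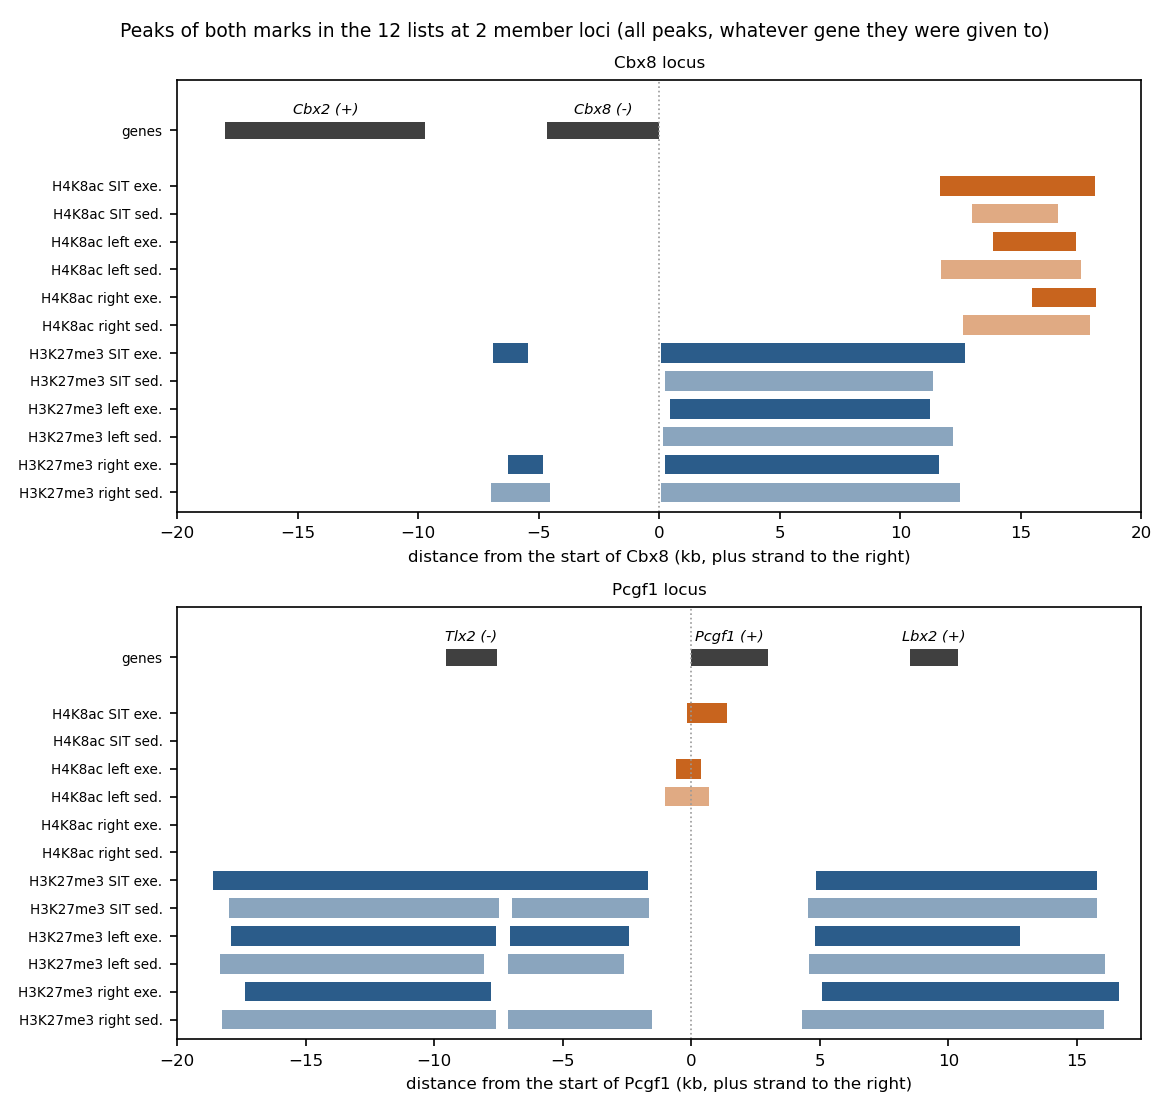
Peaks of the 12 lists around Cbx8 (top) and Pcgf1 (bottom), with H4K8ac in orange, H3K27me3 in blue, exercised in full and sedentary in pale colour; the horizontal axis is the distance in kb from the start of the member gene. H3K27me3 begins 61 to 454 bp from the start of Cbx8 in all 6 lists and touches the H4K8ac peak in 2 of the 6 pairs of lists, and Pcgf1 lies between H3K27me3 over Tlx2 and over Lbx2.

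The 2 sequences below show the Cbx8 promoter, where the H3K27me3 peak begins, and the middle of the stretch shared by the 6 H4K8ac peaks. CG dinucleotides, the targets of DNA methylation and a hallmark of promoters that recruit Polycomb, are in capitals. The promoter is RefSeq's window on GRCm38.p6, chr11:119040864-119041163 on the minus strand, 250 bases before and 50 after the start. The other is chr11:119056826-119057125 on the plus strand of the same build.
Cbx8 promoter: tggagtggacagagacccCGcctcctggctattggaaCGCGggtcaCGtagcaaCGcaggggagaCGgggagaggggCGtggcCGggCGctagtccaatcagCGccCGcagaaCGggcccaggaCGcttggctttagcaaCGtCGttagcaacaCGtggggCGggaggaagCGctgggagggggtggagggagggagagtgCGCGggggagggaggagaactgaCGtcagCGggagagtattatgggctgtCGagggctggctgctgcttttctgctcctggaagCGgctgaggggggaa
Cbx8 intergenic H4K8ac region: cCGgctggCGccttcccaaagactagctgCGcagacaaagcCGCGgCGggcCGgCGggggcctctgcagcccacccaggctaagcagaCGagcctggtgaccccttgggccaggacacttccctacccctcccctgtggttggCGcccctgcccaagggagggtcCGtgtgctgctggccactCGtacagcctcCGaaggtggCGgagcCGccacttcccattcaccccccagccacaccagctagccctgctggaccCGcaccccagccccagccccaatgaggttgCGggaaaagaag
The promoter held 24 CG in 300 bases with 66.0% G or C, and 3 of the 6 H3K27me3 lists had a peak reaching into it. The intergenic piece held 17 CG with 69.0% G or C, and all 6 H4K8ac lists and no H3K27me3 list covered it.

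Pcgf1, which encodes the PCGF subunit of a variant PRC1, had H4K8ac over its own start in 3 lists, with widths of 1522 bp in exercised SIT and 1002 and 1720 bp in exercised and sedentary left separate mice. No H3K27me3 peak was given to it. Yet H3K27me3 lay within 3 kb of the gene in all 6 lists, on either side, in peaks given to the homeobox genes Tlx2 and Lbx2. The peak given to Lbx2 began 4301 to 5097 bp after the start of Pcgf1 and was 8004 to 11730 bp wide. On the Tlx2 side the nearest peak ended 1536 to 2614 bp before the start of Pcgf1 in 5 lists, and 7783 bp before it in exercised right separate mice. No H3K27me3 peak in any list entered the gene, which was singled out after its values were seen.

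Aebp2 and Rybp received most of the members' H3K27me3 peaks, 115 and 117 of 259, and almost none of these were at the genes. AEBP2 is a zinc finger protein that assists PRC2, and RYBP joins RING1 proteins to variant PRC1. Aebp2 peaks numbered 25 in exercised and 14 in sedentary SIT mice, 18 and 17 in left separate mice, and 17 and 24 in right separate mice. Rybp peaks numbered 25 and 14, 22 and 21, and 11 and 24 in the same order. The condition with more peaks was exercised in SIT and left separate and sedentary in right separate, as for the whole H3K27me3 lists.

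Of the Aebp2 peaks, 1 overlapped the gene, 2 lay within 3 kb and 112 lay farther off, at a median distance of 101738 bp. The first of them, chr6:140665235-140667850 in exercised right separate mice, lay wholly inside the gene. The others stood past its end, as far as position 140935758. Over the whole stretch of 271.0 kb Gm11077 was the nearest other protein-coding gene. Several merged regions lay over Gm11077 itself, among them chr6:140735587-140746760, which held peaks in all 6 lists. The widest Aebp2 peak, 50012 bp in exercised SIT mice, also overlapped Gm11077. It was wider than 99.5% of its list, and the same place held peaks in all 6 lists. Of 23 merged Aebp2 regions, 5 were covered in all 6 lists and 7 in 1. The 117 Rybp peaks lay 7549 to 247547 bp from the gene, with a median of 133760 bp, and most of its regions stood beyond its end. Each Rybp region was at least 180085 bp from the next other protein-coding gene, Prok2 or Shq1. Of 25 merged Rybp regions, 10 were covered in all 6 lists and 4 in 1. The nearest, chr6:100295034-100305173, stood on the upstream side of Rybp in 5 lists and was absent from exercised right separate mice.

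**Figure D4:**
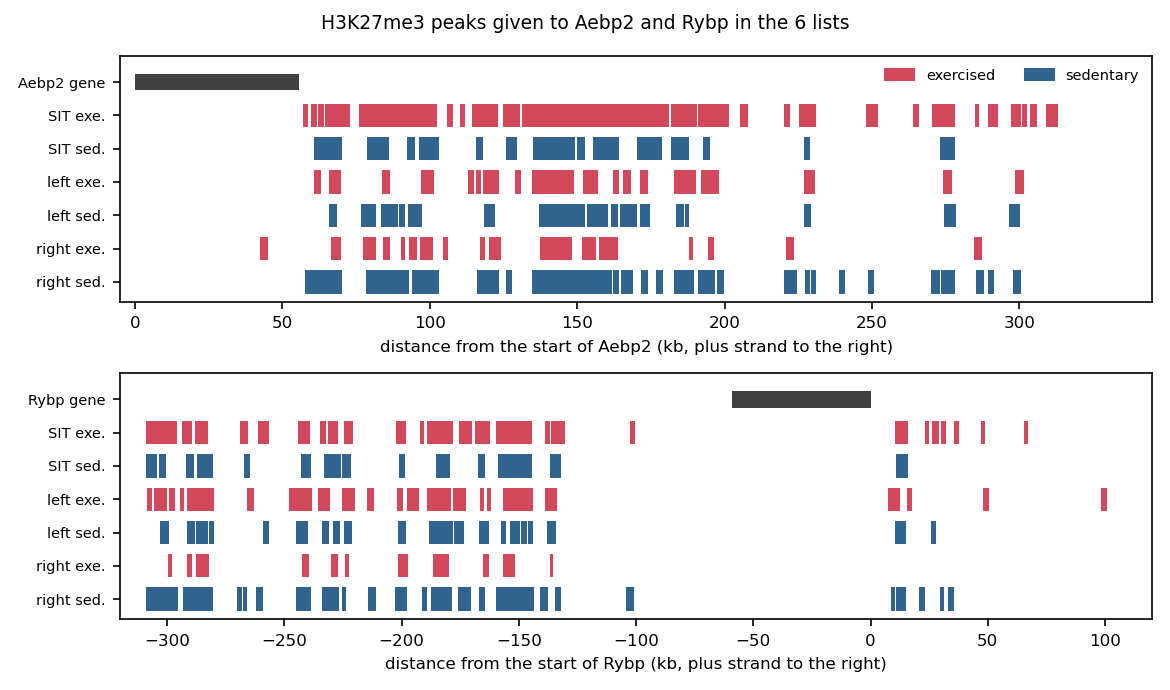
H3K27me3 peaks given to Aebp2 (top) and Rybp (bottom) in the 6 lists, by distance in kb from the start of the gene, with exercised lists in red, sedentary lists in blue and the gene in grey. Peaks crowd beyond the end of either gene, 1 Aebp2 peak and no Rybp peak overlaps the gene it was given to, and the same blocks return across lists.

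The remaining 4 members with H3K27me3 had few peaks. Jarid2, whose product helps PRC2 find its targets, had a peak 125131 to 125665 bp before the gene in 5 lists, all but exercised right separate. Its widths were 4106 and 3741 bp in SIT, 3191 and 3642 bp in left separate, and 4026 bp in sedentary right separate mice. Further Jarid2 peaks, 76867 to 101691 bp before the gene, were in exercised SIT and sedentary right separate mice. Phf2, a demethylase of the PHF and KDM7 family, had a peak 15088 to 17658 bp past its end in the same 5 lists, 2414 to 4911 bp wide. Epop, which links PRC2 to elongin, had a single peak of 2404 bp that overlapped the gene in exercised SIT mice, chr11:97626366-97628769. Phf19, a PRC2 subunit that binds methylated lysine 36 of H3, had a single peak of 1897 bp, 11170 bp before its start, in exercised right separate mice. Epop and Phf19 thus rest on 1 list each, and neither peak was found in another arm.

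Over all members, 3 of 259 H3K27me3 peaks overlapped the gene they were given to and 190 lay more than 50 kb away. Distal intergenic peaks made up 84.6% of them, against 45.3% of all H3K27me3 peaks in the lists. Aebp2 and Rybp held 232 of the 259 peaks, 200 of the 219 distal intergenic ones and 182 of the 190 beyond 50 kb. Of the 27 peaks of the other 5 members 19 were distal intergenic, and of the 9 of Cbx8 2 were. H4K8ac peaks of members lay closer, with 43 of 118 in the gene and 16 within 3 kb. Distal intergenic peaks were 46.6% of these, against 28.3% of all H4K8ac peaks, but Kdm7a, Pcgf5, Rybp and Cbx8 held 44 of the 55. Of the 69 peaks of the other 19 members 11 were distal intergenic (15.9%), a share below that of all H4K8ac peaks.

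**Figure D5:**
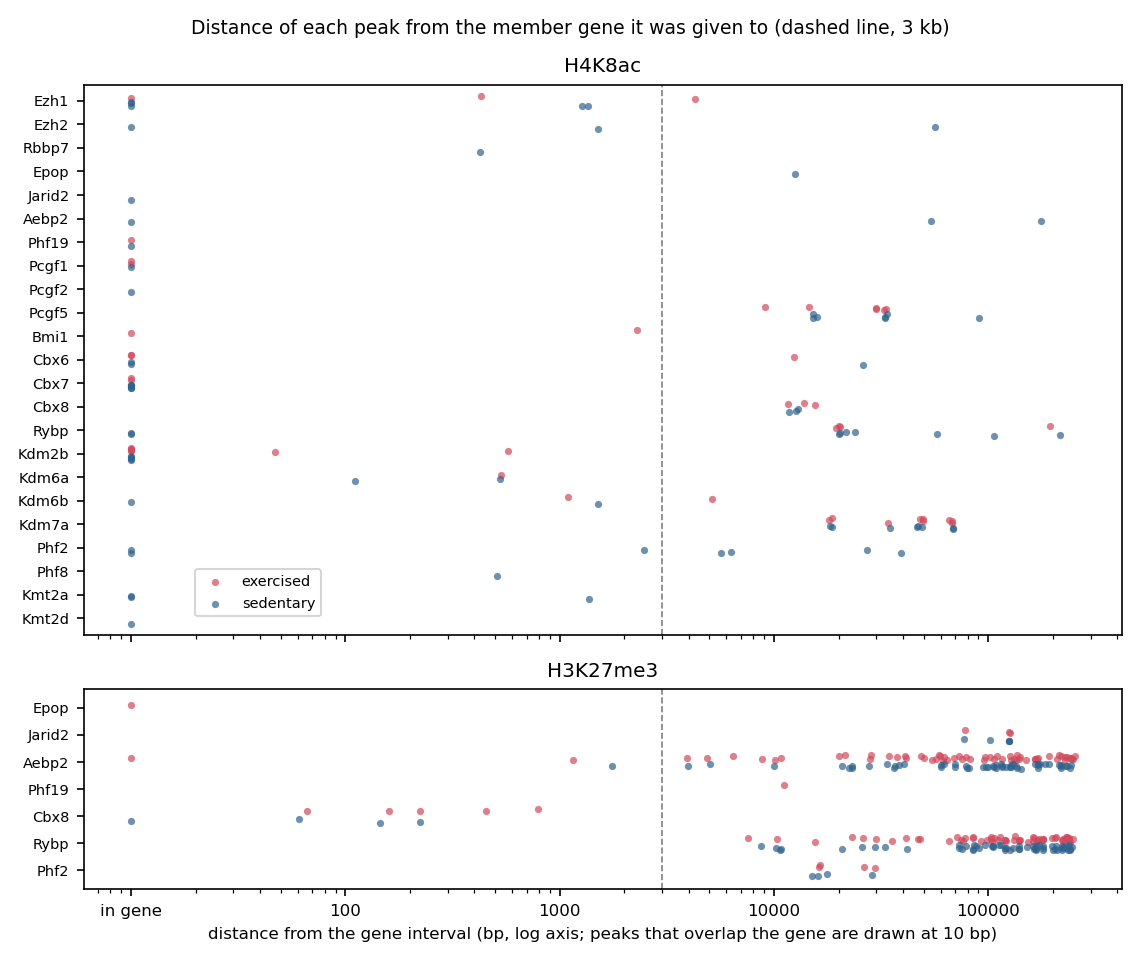
Distance in bp (log axis) of each member peak from the gene it was given to, for H4K8ac (118 peaks) and H3K27me3 (259 peaks), with exercised lists in red and sedentary lists in blue; peaks that overlap the gene are drawn at the left edge and the dashed line marks 3 kb. Most H3K27me3 points lie right of the line, and in H4K8ac the members split into those marked at the gene and those marked from afar, such as Kdm7a, Pcgf5 and Cbx8.

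Among the PRC2 core genes, Ezh1, Ezh2 and Rbbp7 had H4K8ac peaks and none of the 6 had H3K27me3. Ezh1, the catalytic subunit that prevails in cells that no longer divide, was listed in 5 of 6 lists, and Ezh2, its counterpart of dividing cells, in sedentary left separate mice alone. The recurrent Ezh1 region, chr11:101188630-101192883, sat at the 3′ end of the gene and overlapped its neighbour Cntnap1, a gene of axon-glia contact. The peaks there of sedentary SIT and exercised left separate mice lay 1349 and 428 bp outside Ezh1, on the Cntnap1 side. Those lists held no other peak given to Ezh1. In sedentary left separate mice the peak overlapped Ezh1, and the exercised SIT peak spanned the whole region. Peaks there were 4254 and 888 bp wide in exercised and sedentary SIT mice, and 1358 and 1699 bp in left separate mice. Sedentary right separate mice had 2 peaks there, of 819 and 2342 bp, and exercised right separate mice none. Rbbp7, a histone chaperone of PRC2, had a promoter peak of 1493 bp in sedentary left separate mice.

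The accessory genes Jarid2, Aebp2, Epop and Phf19 had H4K8ac in 1 to 3 lists each. Jarid2 had a peak of 1874 bp over its start in sedentary right separate mice, and Phf19 a peak of 1507 bp in exercised SIT and 2255 bp in sedentary left separate mice. The single Epop peak, of 741 bp, was 12549 bp away in sedentary SIT mice.

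Of the PRC1 genes, Bmi1 and Pcgf2, PCGF subunits of canonical PRC1, had H4K8ac over an annotated start, though not the outermost one, in 1 list each, exercised SIT (1344 bp) and sedentary left separate (1270 bp). Pcgf5, a PCGF subunit of variant PRC1, had 13 peaks in 5 lists and none within 3 kb. Its most frequent region, chr19:36493538-36498610, was 32568 bp past the gene and present in every list but exercised left separate. Cbx6, a chromobox subunit, had H4K8ac over its start in exercised SIT (1643 bp), sedentary left separate (1022 bp) and exercised right separate mice (967 bp). Cbx7, a further chromobox subunit, had peaks within the gene in 5 lists, and 4 of these shared the intronic region chr15:79926686-79929129.

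Kdm2b, which brings variant PRC1 to unmethylated CG-rich DNA, had 11 H4K8ac peaks in 4 lists, the most lists with a promoter peak of any member. The peaks numbered 5 and 0 in exercised and sedentary SIT mice, 1 and 4 in left separate, and 0 and 1 in right separate, so the condition with more changed between arms. All 4 lists had a peak in chr5:122989519-122991558, at the upstream end, where Gm44574 and A930024E05Rik are annotated as well. Rybp was listed in all 6 lists, mostly for the intergenic region chr6:100203598-100209084, 19481 bp past the gene and present in 5 lists.

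The H3K27 demethylase genes Kdm6a and Kdm6b had H4K8ac promoter peaks in 3 lists each. Kdm6a peaks were 684 and 866 bp wide in exercised and sedentary SIT mice and 1264 bp in sedentary right separate mice. Kdm6b had 3242 bp in exercised SIT, 1800 bp in sedentary left separate and 2338 bp in sedentary right separate mice. H4K8ac also lay within 3 kb of the other end of Kdm6b in all 6 lists, in peaks of 1333 to 4046 bp given to Tmem88 or Cyb5d1.

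Kdm7a, a demethylase of the same family as Phf2, was listed for H4K8ac in all 6 lists with 17 peaks, none closer than 18041 bp. Its counts were 5 and 1 in exercised and sedentary SIT mice, 2 and 2 in left separate, and 2 and 5 in right separate. The upstream region chr6:39253431-39258159 was present in 5 lists. Phf8, encoded on the X chromosome, had 1 promoter peak of 750 bp in sedentary left separate mice. The H3K4 methyltransferase genes had few peaks, with Kmt2a listed in sedentary left and right separate mice and Kmt2d in sedentary SIT mice. H4K8ac covered an annotated start site of 12 members in at least 1 list (32.4%), about the share of all protein-coding genes, 33.0%.

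As a peak beside a member can be given to another gene, members were also counted by any peak within 3 kb of the gene, whatever gene it had been given to. By that rule 10 members were marked by H4K8ac in either SIT list, against 42.9% of protein-coding genes in exercised and 31.8% in sedentary mice. In left separate mice 5 (13.5%) and 17 (45.9%) were marked, against 19.1% and 41.1%, and in right separate mice 4 (10.8%) and 8 (21.6%), against 21.6% and 31.8%. For H3K27me3, 5 (13.5%) and 2 (5.41%) members were marked in SIT, against 20.6% and 12.8%. In left separate mice 2 members (5.41%) were marked in either condition, against 16.4% and 14.6%, and in right separate mice 3 (8.11%) and 4 (10.8%), against 11.0% and 19.3%. In all, 15 of 74 H4K8ac peaks and 13 of 26 H3K27me3 peaks within 3 kb of a member had been given to a neighbour. An example was Phf7 at Bap1, and 10 members had no peak by either rule.

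Exercise was compared by asking which members were in the exercised list alone (gained) or in the sedentary list alone (lost). For H4K8ac in SIT, 5 of 17 members in either list were gained (29.4%), namely Phf19, Pcgf1, Bmi1, Kdm2b and Kdm6b, against 28.2% of protein-coding genes in either list. Those lost were Epop, Aebp2, Phf2 and Kmt2d, 4 members (23.5%) against 9.93%. In left separate mice no member was gained, against 3.55%, and 12 of 18 were lost (66.7%), against 52.1%. In right separate mice Cbx6 was gained, 1 of 14 (7.14%) against 9.28%, and 8 were lost (57.1%), against 36.6%. None of the 5 members gained in SIT was gained in another arm, though Pcgf1 was also gained in left separate mice with equal numbers of peaks, and Phf19, Kdm2b and Kdm6b were lost in at least 1. By peaks within 3 kb of the gene, Kdm6b was neither gained nor lost in any arm, as H4K8ac lay that near it in all 6 lists. With the widest 50% of each list, Phf19, Pcgf1 and Bmi1 were no longer gained in SIT. Kdm2b was gained in SIT at both of these settings, with promoter peaks alone and with equal numbers of peaks. With the widest peaks of each list kept in equal numbers, 5 members were gained and 5 lost in SIT, against 23.5% and 14.6% of protein-coding genes, out of 17 members in either list. In left separate mice 3 were gained and 4 lost of 10, against 24.0% and 24.0%, and in right separate mice 2 were gained and 4 lost of 10, against 26.1% and 21.6%. The share of members lost lay above that of protein-coding genes in each arm by both counts, a gap of a few genes that was not tested.

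Aebp2 and Phf2 were lost for H4K8ac in all 3 arms, 2 of 23 listed members against 0.868% of all listed protein-coding genes, and no member was gained in all 3, against 0.14%. The call of Aebp2 ended under every alternative, namely promoter peaks alone, peaks within 3 kb, the widest 50% and equal numbers. That of Phf2 held with all of these but promoter peaks alone, and with equal numbers it was 1 of 19 members, against 0.199% of protein-coding genes. The 3 Aebp2 peaks were in 3 different places. In SIT the peak was 1113 bp wide and within the gene. In left separate it was 1393 bp wide and 176229 bp past the gene. In right separate it was 1679 bp wide and 54002 bp past the gene, over Gm11077, another protein-coding gene. The Phf2 loss rested on its own promoter in 2 arms, with a peak of 1580 bp in sedentary SIT (chr13:48870436-48872015) and 1010 bp in sedentary right separate mice (chr13:48870943-48871952). In sedentary left separate mice Phf2 had 4 peaks, of 1588 to 2050 bp, none of them at the start, and 3 of them lay nearer to or over Fam120a, the upstream neighbour. No exercised list had an H4K8ac peak given to Phf2, nor one within 3 kb of it. In 2 of the 3 arms the exercised H4K8ac list was the shorter.

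For H3K27me3, Epop was gained in SIT, 1 of 6 (16.7%) against 41.3%, and none was lost, against 0.976%. In left separate mice none was gained or lost, against 18.4% and 9.17%, and the 5 listed members, Jarid2, Aebp2, Cbx8, Rybp and Phf2, were in both lists. In right separate mice Phf19 was gained (16.7%), against 2.87%, and Jarid2 and Phf2 were lost (33.3%), against 43.9%. The call of Epop ended with equal numbers of peaks and with the widest 50%, and that of Phf19 with promoter peaks alone, within 3 kb and with the widest 50%. The losses of Jarid2 and Phf2 ended with promoter peaks alone and within 3 kb. No member was gained or lost for H3K27me3 in all 3 arms, against 0.195% and 0.0487% of protein-coding genes. Where a member was in both lists of an arm for this mark, its peaks overlapped between conditions in every case, near the 99.0%, 95.4% and 97.2% of protein-coding genes in both lists in SIT, left and right separate mice. For H4K8ac 8, 6 and 5 members were in both lists in SIT, left and right separate mice, and 6, 4 and 4 had a peak that overlapped one of the other condition, against 85.7%, 86.9% and 88.1% of protein-coding genes.

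Over the 3 arms the exercised lists held a mean of 8.33 members for H4K8ac and the sedentary lists 14.3, a difference of -6.0 ± 6.56 (SD, n = 3 arms, with 1, -12 and -7 in SIT, left and right separate). With equal numbers of peaks the mean difference was -1.0. An exact permutation test (two-sided, over all sign flips of the 3 differences) returned p = 0.5, or 1.0 when adjusted over 2 marks. For H3K27me3 both means were 5.0 and the difference was 0.0 ± 1.0 (SD, n = 3 arms), with p = 1.0 and adjusted p = 1.0 by the same exact test. The smallest p that 3 arms allow is 0.25, so no difference could have passed.

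Regions were compared between lists by merging the members' peaks of a mark. Of 61 H4K8ac regions, 38 had a peak in 1 list (62.3%, against 49.9% of all merged H4K8ac regions) and 1, that of Cbx8, in all 6 (1.64%, against 5.99%). Of 58 H3K27me3 regions, 48 were those of Aebp2 and Rybp. Of the 58, 15 had a peak in 1 list (25.9%, against 37.5% of all merged H3K27me3 regions) and 16 in all 6 (27.6%, against 16.7%), and those 16 belonged to Rybp (10), Aebp2 (5) and Cbx8 (1).

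Promoter windows of 30 members were found in RefSeq's table for GRCm38.p6, 39 windows in all, as some genes have several starts. Those not matched were Cbx2, Pcgf1, Rybp, Epop, Kdm6b, Yaf2 and Kmt2b. The windows held a median of 27 CG in 300 bases (quartiles 21.5 and 36.5), against 7 (quartiles 3 and 20) over 32851 windows of all genes, and 66.0% against 52.7% G or C. The motif GGGCGG, the core of the binding site of SP1, was in 79.5% of member windows and 35.7% of all, counted on both strands. TATAAA was in 2.56% and 13.6%, CCGGAAG in 5.13% and 8.86%, CACGTG in 17.9% and 7.15%, and TGACGTCA in 5.13% and 1.79%. CG, which all of these but TATAAA hold, was in every member window and in 94.6% of all.

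The 4 promoters below, all on the minus strand of GRCm38.p6 and with CG in capitals, belong to members with H4K8ac promoter peaks and no H3K27me3 promoter peak. Kdm2b (chr5:122988458-122988757) had H4K8ac promoter peaks in the most lists, 4, and Ezh1 (chr11:101226414-101226713) the widest in sum of those with 3, while Cbx6 (chr15:79834284-79834583) and Phf2 (chr13:48870836-48871135) were added after their values were seen, as peaks lay right over their starts.
Kdm2b promoter: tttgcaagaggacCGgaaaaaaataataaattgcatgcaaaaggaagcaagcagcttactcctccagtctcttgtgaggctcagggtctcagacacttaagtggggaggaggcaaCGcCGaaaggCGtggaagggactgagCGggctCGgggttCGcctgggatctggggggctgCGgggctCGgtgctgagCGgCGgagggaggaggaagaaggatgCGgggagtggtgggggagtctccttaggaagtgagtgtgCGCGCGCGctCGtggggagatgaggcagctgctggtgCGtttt
Ezh1 promoter: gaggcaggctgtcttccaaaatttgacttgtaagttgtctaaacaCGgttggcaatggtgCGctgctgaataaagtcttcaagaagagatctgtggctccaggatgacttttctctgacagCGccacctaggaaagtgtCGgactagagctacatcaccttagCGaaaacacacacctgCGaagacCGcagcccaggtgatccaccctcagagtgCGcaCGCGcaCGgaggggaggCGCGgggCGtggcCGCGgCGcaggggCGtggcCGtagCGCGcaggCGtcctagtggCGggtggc
Cbx6 promoter: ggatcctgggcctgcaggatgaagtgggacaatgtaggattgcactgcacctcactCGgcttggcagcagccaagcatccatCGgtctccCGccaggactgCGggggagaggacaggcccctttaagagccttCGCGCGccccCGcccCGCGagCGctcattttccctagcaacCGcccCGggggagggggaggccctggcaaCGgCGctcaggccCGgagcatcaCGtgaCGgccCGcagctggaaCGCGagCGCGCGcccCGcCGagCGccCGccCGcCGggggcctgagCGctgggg
Phf2 promoter: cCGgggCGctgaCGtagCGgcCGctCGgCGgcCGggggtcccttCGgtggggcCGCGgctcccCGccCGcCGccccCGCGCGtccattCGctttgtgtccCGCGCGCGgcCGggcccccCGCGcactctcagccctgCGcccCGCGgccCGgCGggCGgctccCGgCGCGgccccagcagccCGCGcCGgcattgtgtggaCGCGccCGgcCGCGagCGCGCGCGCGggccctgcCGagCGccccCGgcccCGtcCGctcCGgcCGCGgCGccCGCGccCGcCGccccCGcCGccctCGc
The Phf2 window was the richest of these in CG, with 63 and 87.0% G or C, and 5 matches to GGGCGG. It was covered in 2 H4K8ac lists, both sedentary. Cbx6 held 31 CG and was covered in 3 lists. The Kdm2b window held 18 CG and was covered in 1 list, and that of Ezh1 held 23 and was covered in none, as the promoter peaks of Ezh1 lay elsewhere in the gene, 1 of them over another annotated start. The Cbx8 promoter printed above held 1 match to each of the motifs TGACGTCA and GGGCGG and 1 to CACGTG.

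The same counts were made for 43 related genes, other Polycomb partners and lysine methylation enzymes. Of these 43, H4K8ac was given to 32 and H3K27me3 to 8, with 9 given neither. The shares of protein-coding genes were 52.0%, 28.1% and 35.1% in the same order. In SIT 10 of 30 related genes were gained for H4K8ac (33.3%) and none lost. In left separate mice 1 of 27 was gained (3.70%) and 17 lost (63.0%), and in right separate mice 1 of 17 was gained (5.88%) and 7 lost (41.2%). In each arm more related genes were thus listed in the longer H4K8ac list, as was so for the members. For H3K27me3 the related genes gained numbered 3 of 7 (42.9%), 0 of 4 and 0 of 7 in SIT, left and right separate mice. Those lost numbered 0, 0 and 5 (71.4%) in the same order. For both marks the shares of protein-coding genes gained and lost are those given above beside the members.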

How the data were processed

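CUT&RUN-seq peaks of H4K8ac and H3K27me3 were analysed from 12 lists, 1 for each mark, condition and arm. Per the labels and methods, the authors aligned reads with Bowtie2 2.4.1, checked them with FastQC 0.11.9, called peaks with SEACR (stringent), and annotated them with ChIPseeker 1.8.6 against mm10 (GRCm38), calling promoter what lay up to 3 kb from a start. How libraries of a group were combined is not given in the sources used here. The lists used here give positions and widths in bp, with no other measure of a peak, and a listed start may lie 1 base before the peak's first base. The authors also name signal tracks and reads in their submission, and these were not used.

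Members and gene lists were chosen with earlier results of these data known. Genes and the background came from GENCODE M21. Counts have no test, and means over arms had an exact sign-flip permutation test with Benjamini-Hochberg adjustment. Positions and widths were to be given for members with H3K27me3, members gained or lost for H4K8ac in 3 arms, and members with H4K8ac promoter peaks in 6 lists (none). Other positions, Pcgf1 included, were chosen after the values were seen. Functions were tested on simulated data (20 of 20 interval sets matched). Alternatives were promoter peaks, peaks within 3 kb, the widest 50%, equal numbers, 50% reciprocal overlap, and each arm left out. Python 3.11.15 with pandas 2.3.3, numpy 2.4.6 and matplotlib 3.10.9 was used. Results at a few neighbouring genes are not reported here.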

Additional observations from a re-analysis of the deposited data

Results flagged for a closer look

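The difference between conditions in the number of members listed had opposite signs in different arms. For H4K8ac it was 1 in SIT, -12 in left separate and -7 in right separate mice (exercised minus sedentary). For H3K27me3 it was 1 in SIT and -1 in right separate mice. The opposite signs ended with equal numbers of peaks. There the differences were 0, -1 and -2 for H4K8ac and 0, 0 and -1 for H3K27me3 in SIT, left and right separate mice. For H4K8ac they also ended with peaks within 3 kb, at 0, -12 and -4. For H3K27me3 they also ended with promoter peaks alone, at 1, 0 and 0. Each arm gives 1 value, so the difference between arms was not tested. The sign was that of the difference in list length in each of these arms.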

How the results depend on the processing

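Of 68 values under the alternatives, 51 were counted as unchanged and 17 as changed. A count was unchanged within 1.5 times the reported count, and a mean over arms unless its direction reversed. The mean difference for H4K8ac kept its direction under every alternative. For H3K27me3 the reported mean difference was 0.0, so it had no direction that could reverse. Its values under the alternatives took both signs and all are among the 51, so they say nothing on stability. With equal numbers of peaks in the lists of an arm, members gained for H4K8ac were 3 in left and 2 in right separate mice, members lost 4 in left and 4 in right, and members gained for H3K27me3 in SIT 0. With peaks within 3 kb of the gene, members gained for H4K8ac were 1 in left and 2 in right separate mice, members gained for H3K27me3 were 3 in SIT and 0 in right separate mice, and members lost for H3K27me3 in right separate mice 1. With the widest 50% of each list, members gained for H4K8ac in left separate mice were 1, members lost in right separate mice 4, members gained for H3K27me3 were 2 in SIT and 0 in right separate mice, and members lost for H3K27me3 in left separate mice 1. With promoter peaks alone, members gained and lost for H3K27me3 in right separate mice were 0 and 0. The cause was not tested. By construction fewer peaks enter the counts with equal numbers, the widest 50% and promoter peaks alone, while the 3 kb rule also adds peaks given to neighbouring genes. Phf2 was lost for H4K8ac in all 3 arms also within 3 kb, with the widest 50% and with equal numbers, but in 2 arms with promoter peaks alone, and Aebp2 in 3 arms under none of these. The mean difference over arms for H4K8ac was -9.5 to -3.0 with 1 arm left out and -5.33 to -1.0 under the other alternatives. For H3K27me3 it was -0.5 to 0.5 with 1 arm left out and -0.333 to 0.667 under the others. No paired analysis was possible because the lists pool the libraries of a group. Depth, peak height and the spread between mice cannot be read from the lists used, so in them small or absent peaks cannot be told apart from peaks under the threshold.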
